A study of Mus musculus with 6 samples.

Results

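Cadherins are membrane proteins that bind cells to one another through repeated extracellular domains that need calcium. The members described here are the mRNA transcripts whose gene symbol begins with Cdh and a digit, Pcdh or Celsr, is one of Fat1 to Fat4, or begins with Dsc or Dsg, with Pcdh15 and Cdh23 left out. The rule used no measured value and gave 94 transcripts of 88 genes, out of 15142 mRNA transcripts of 12145 genes. The genes Dscam, Dscaml1 and Dscr3 came in by the letters of their symbols and are no cadherins. Without these 3 genes there were 91 transcripts of 85 genes. The rule would take in 109 protein-coding symbols in RefSeq, and 86 of them were in the table. The other 23 were not analysed here, among them Cdh1, Cdh3, Celsr1, Fat2 and all desmogleins (Dsg) and desmocollins (Dsc). No desmosomal cadherin was therefore a member.

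Whole retinas were taken at postnatal day 21 from 3 Nrl-/- and 3 WT mice, all labelled as strain C57BL/6 (C57Bl/6J in the study's methods), and each mouse gave 1 RNA-seq library. Nrl encodes a leucine zipper protein needed to make rods, and the deletion is present in every cell of the animal. The Nrl-/- retina forms cone-like photoreceptors in place of rods. The main Nrl transcript (NM_001136074) was at 0.879 to 0.959 FPKM in the Nrl-/- libraries and 500.5 to 583 FPKM in the WT libraries. FPKM counts fragments scaled by transcript length and by the mapped reads of the library, so levels of different genes can be set side by side. All 12 rod markers were lower in Nrl-/- retina, with a summed level of 1366 to 1452 FPKM, against 17040 to 17350 FPKM in WT retina. All 10 cone markers were higher, at 6627 to 6805 FPKM in Nrl-/- and 562 to 681 FPKM in WT retina. Y-linked transcripts were near 0 in WT replicate 2 only, so the WT group mixed sexes by this measure.

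The classical cadherins join neighbouring cells at adherens junctions, where their cytoplasmic tails bind beta-catenin and p120-catenin. In the retina these junctions hold photoreceptors and Müller glia together at the outer limiting membrane. The clustered protocadherins are made from 3 adjoining gene clusters, named Pcdha, Pcdhb and Pcdhg. Each Pcdha or Pcdhg transcript joins its own variable first exon to constant exons shared by its whole cluster, and each neuron uses a small set of the variable exons as a cell-surface identity. In the retina the gamma protocadherins are known for the survival of interneurons and for the self-avoidance of starburst amacrine dendrites. Celsr and Fat proteins are very large cadherins of planar cell polarity.

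The start regions of Cdh18, Cdh20 and Cdh24 are printed because these 3 type II cadherins were higher in Nrl-/- retina at an adjusted p under 0.05 and lie outside the protocadherin clusters. The sequences run from 250 bases before to 50 bases after the RefSeq start site in build GRCm38.p6, read 5′ to 3′ on the strand of the gene. Capitals mark a CCAAT box (CCAAT or its reverse complement ATTGG) or a GC box (GGGCGG or CCGCCC).
Cdh18, chr15:23036213-23036512, plus strand: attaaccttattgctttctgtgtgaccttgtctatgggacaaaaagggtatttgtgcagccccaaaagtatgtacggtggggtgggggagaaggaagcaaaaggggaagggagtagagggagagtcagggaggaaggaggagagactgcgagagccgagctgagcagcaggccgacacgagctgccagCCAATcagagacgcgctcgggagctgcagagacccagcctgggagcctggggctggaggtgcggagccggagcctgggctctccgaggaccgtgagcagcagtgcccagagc
Cdh20, chr1:104768270-104768569, plus strand: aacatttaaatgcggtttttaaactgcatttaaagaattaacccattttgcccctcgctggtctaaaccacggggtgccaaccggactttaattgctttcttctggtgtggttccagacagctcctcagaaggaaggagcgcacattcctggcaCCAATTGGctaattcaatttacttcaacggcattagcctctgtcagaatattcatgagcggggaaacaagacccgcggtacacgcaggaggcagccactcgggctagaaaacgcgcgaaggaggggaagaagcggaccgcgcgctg
Cdh24, chr14:54641315-54641614, minus strand: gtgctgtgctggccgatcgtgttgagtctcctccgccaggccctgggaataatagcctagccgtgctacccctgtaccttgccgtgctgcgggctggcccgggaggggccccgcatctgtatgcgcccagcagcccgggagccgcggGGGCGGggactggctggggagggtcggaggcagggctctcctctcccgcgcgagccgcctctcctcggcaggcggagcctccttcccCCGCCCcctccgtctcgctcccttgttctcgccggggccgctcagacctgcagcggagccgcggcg
Cdh18 held 1 CCAAT box and Cdh20 held 2 that overlap on opposite strands, while Cdh24 held 2 GC boxes. Of 32851 RefSeq regions of the same length, 37.4% held a CCAAT box and 35.7% a GC box on either strand. Neither TAATCC, the core bound by homeodomain factors such as CRX (found in 7.06% of all regions), nor TGCTGA, part of the site of Maf factors (19.5%), was present in these 3 windows. Such regions were searched for 24 of the 88 member genes, 27 regions in all. The clustered protocadherins, Cdh2 and Pcdh1 were left out of this search, while the percentages of all regions had no such limit. The counts therefore say nothing about the protocadherin clusters. TAATCC occurred in 1 of the 27, a region of Cdh7, and TGCTGA in 5, those of Cdh10, Cdh9, Celsr3, Fat1 and Pcdh17.

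Most cadherins did not pass the test between genotypes. In limma, with Benjamini-Hochberg adjustment over all mRNA transcripts, 15 of the 94 member transcripts were higher in Nrl-/- retina at an adjusted p under 0.05, against 26.7% of all transcripts. In the other direction 9 members were lower, against 10.1% of all transcripts. Counted by gene, with each gene represented by its highest transcript, 15 of 88 were higher (28.3% of all genes) and 9 were lower (10.2% of all genes). At least 1.5-fold changes were found for 5 members that were higher, against 5.71% of all transcripts, and for 2 that were lower, against 3.59%. Folds are on the log2(FPKM + 1) scale and understate the change of low genes. Without Dscam, Dscaml1 and Dscr3 the counts were 14 higher and 8 lower. The median log2 fold change of the members was 0.02 and that of all transcripts 0.08. Groups that did not overlap were found for 18 members with every Nrl-/- library above every WT library (34.9% of all transcripts) and for 13 with every Nrl-/- library below (14.2%). These are bulk retinas, so fewer cells of a type and less RNA per cell cannot be told apart, and the part of the changed photoreceptors in any result was not tested.

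One WT library stood apart for these genes. WT replicate 1 was the highest of the WT libraries in 60 of 94 member transcripts (63.8%), compared with 38.2% of all transcripts, and WT replicate 3 the lowest in 51 (54.3%, against 35.4%). Without WT replicate 1 there were 16 members higher and 7 lower, beside 26.25% and 9.62% of all transcripts. Of the 24 called genes 13 kept their call and sign under each of the 18 or 19 alternative settings that tested the gene, and none of the 24 changed sign. Low genes were not tested under the filters on low values.

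Most members were low. Their median level was 2.82 FPKM in Nrl-/- and 2.96 FPKM in WT retina, and 74 of 94 averaged under 5 FPKM, compared with 43.2% of all transcripts. The deposited table kept a transcript at 1 FPKM or more in any library. Of the members, 90 reached 1 FPKM in both genotypes, 1 (Pcdha11) in Nrl-/- libraries only, and 3 (Pcdha5, Pcdhgb8 and 1 transcript of Pcdh8) in WT libraries only. The order of levels differed by genotype, though ranks that include single clustered protocadherins are uncertain because of shared or near-identical exons. Among the members that are cadherins Pcdhac2, Pcdhgc3 and Cdh2 were highest in Nrl-/- retina, at means of 20.7, 16.8 and 14.5 FPKM. In WT retina Pcdhgc3, Celsr3 and Pcdh9 were highest, at 14.4, 13.6 and 13.3 FPKM, while Pcdhac2 was at 5.98 FPKM. The 3 WT means lay within the spread of Celsr3, whose WT libraries ran from 12.5 to 15 FPKM.

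**Figure D1:**
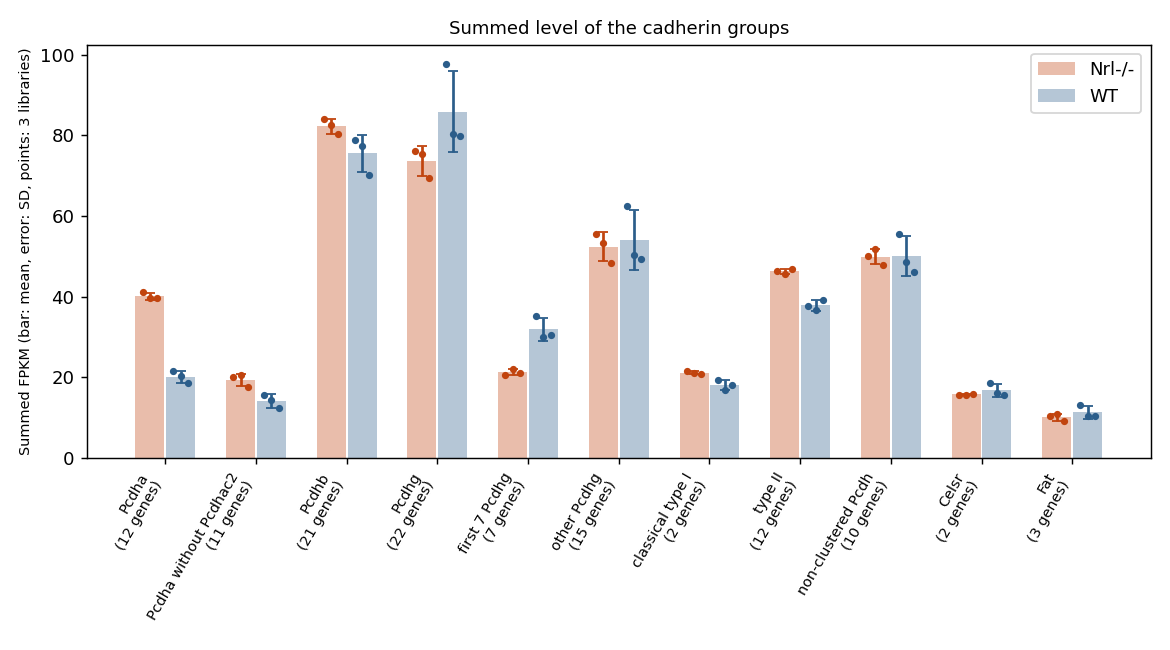
Summed FPKM of each cadherin group, with Nrl-/- bars left of WT bars. Bars are means of 3 libraries, error bars the SD and points the libraries. The alpha protocadherins averaged 40.1 FPKM in Nrl-/- and 20.1 FPKM in WT. The first 7 gamma protocadherins, a group made after the values were seen, averaged 21.2 FPKM in Nrl-/- and 31.9 FPKM in WT.

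In the protocadherin clusters of mouse chromosome 18, 5 of 12 alpha protocadherins were higher in Nrl-/- retina, against 28.3% of all genes. Of these 5, Pcdha11 reached 1 FPKM in Nrl-/- libraries only, so it was kept through the group where it was higher. Pcdhac2 carried most of the difference in the summed level of the cluster. The 12 measured Pcdha genes summed to 40.1 ± 0.876 FPKM in Nrl-/- and 20.1 ± 1.51 FPKM in WT retina (SD, n = 3 each). None was called lower, against 10.2% of all genes, and 7 did not pass. Without Pcdhac2 the sums were 19.3 ± 1.53 FPKM in Nrl-/- and 14.1 ± 1.66 FPKM in WT retina.

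Pcdhac2 encodes a C-type alpha protocadherin, the last variable exon of its cluster. Its level was 21.2, 19.1 and 21.9 FPKM in the Nrl-/- libraries, against 5.87, 5.92 and 6.16 FPKM in the WT libraries. All Nrl-/- libraries were far above all WT libraries, and the spread within each genotype was small. The ratio of the means was 3.47, and the log2 fold change was 1.64 (SE 0.07, adjusted p = 1.5e-07 in limma), the largest of any member. Over the 19 alternative settings the log2 fold change ran from 1.54 to 1.78, with the adjusted p at most 0.00085. The other C-type gene of the cluster, Pcdhac1, was at 1.28, 1.28 and 1.59 FPKM in Nrl-/- and 1.35, 1.43 and 0.892 FPKM in WT retina, so the groups overlapped (log2 fold change 0.11, adjusted p = 0.51).

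The other called alpha genes were Pcdha9, Pcdha10, Pcdha11 and Pcdha12, which sit side by side at places 9 to 12 of 14 in the cluster. This run was noticed after the values were seen. Pcdha9 was at 2.63, 2.43 and 1.68 FPKM in Nrl-/- and 1.31, 1.06 and 1.03 FPKM in WT libraries, with a log2 fold change of 0.60 (SE 0.12, adjusted p = 0.0049). Pcdha10 was at 2.41, 1.73 and 1.68 FPKM in Nrl-/- and 1.03, 0.905 and 0.879 FPKM in WT libraries (log2 fold change 0.59, SE 0.11, adjusted p = 0.0026). In both genes every Nrl-/- library lay above every WT library, but Pcdha9 did not pass in an ordinary linear model (adjusted p = 0.055). Pcdha12 reached 2.79 FPKM in Nrl-/- and 1.65 FPKM in WT retina (log2 fold change 0.51, adjusted p = 0.0031). Pcdha11 had the lowest mean over all libraries of any member gene, at 1.08 FPKM in Nrl-/- and 0.531 FPKM in WT retina (adjusted p = 0.034). It reached 1 FPKM in Nrl-/- libraries only, so its place in this run depends on the group where it was higher. Its call was lost under every rescaling and without any 1 of WT replicates 2 and 3 and Nrl-/- replicates 2 and 3. The adjusted p in limma then ran from 0.054 to 0.121. The 6 measured genes before this run, Pcdha2 to Pcdha7, had log2 fold changes from -0.03 to 0.22, and none passed.

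**Figure D2:**
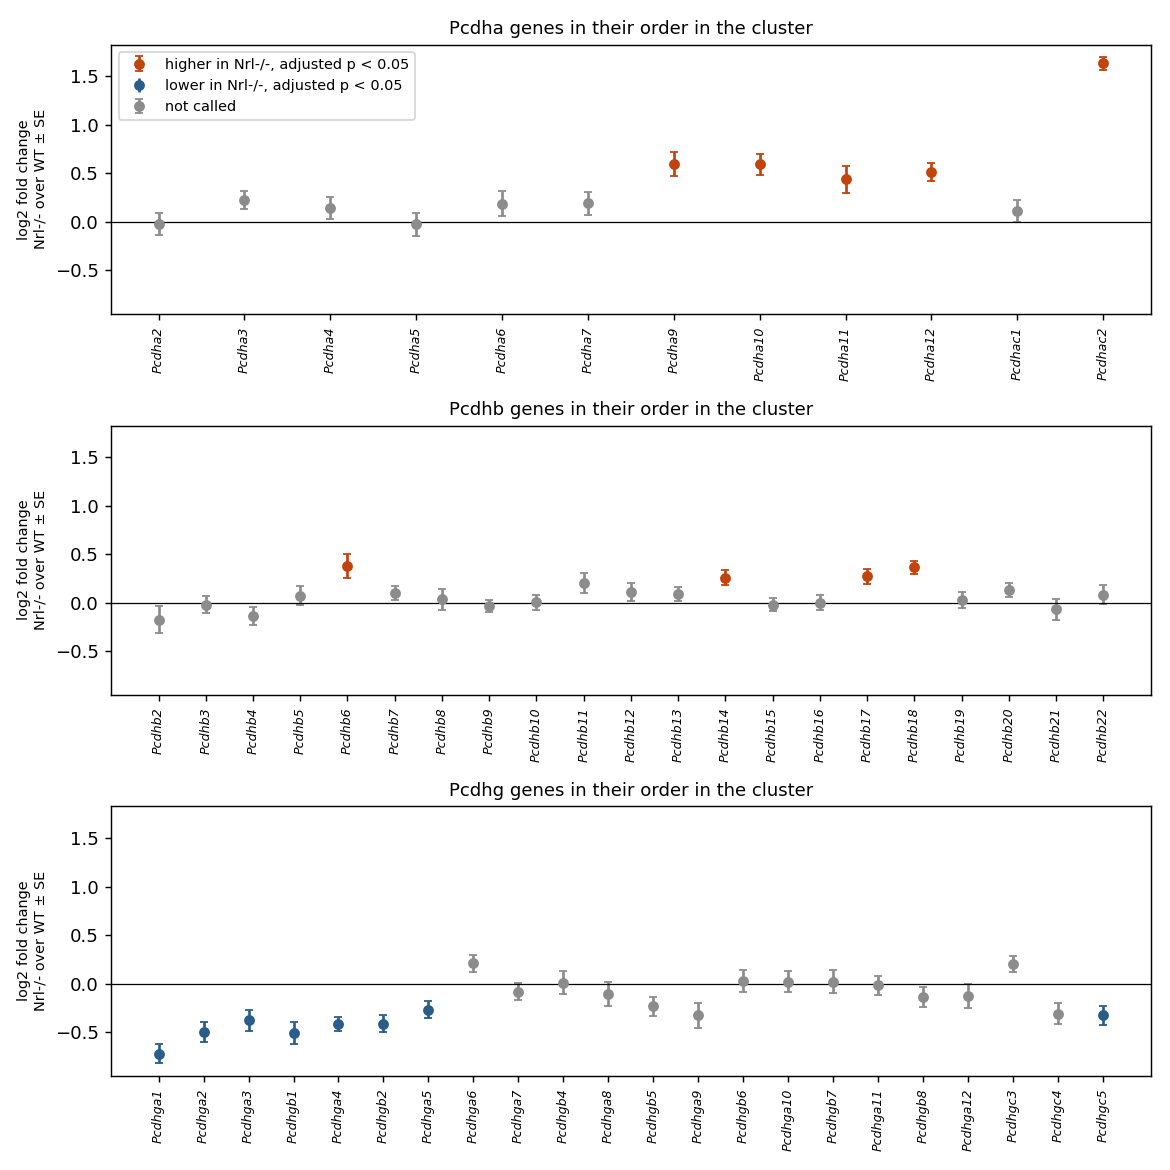
Log2 fold change of Nrl-/- over WT (vertical axis, error bars the SE) for each measured gene of the 3 protocadherin clusters, in RefSeq order from left to right. Pcdhac2 stands highest at 1.64, and the first 7 Pcdhg genes lie between -0.73 and -0.27.

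Most gamma protocadherins that were called lower lay at one end of their cluster. Of 22 genes 8 were lower in Nrl-/- retina, against 10.2% of all genes, and none higher, against 28.3%. Over the whole cluster 16 of the 22 log2 fold changes were below 0. The first 7 genes in cluster order, Pcdhga1, Pcdhga2, Pcdhga3, Pcdhgb1, Pcdhga4, Pcdhgb2 and Pcdhga5, were all among the 8, and the other was Pcdhgc5, the last gene. The grouping into the first 7 was made after the values were seen and carries no test of its own. They summed to 20.6, 22.1 and 21.0 FPKM in the Nrl-/- libraries and 35.1, 30.1 and 30.4 FPKM in the WT libraries. Each of the 7 had every Nrl-/- library below every WT library (14.2% of all transcripts), so these sums could not overlap. The 7 were grouped after they were called lower, so this is no separate evidence. The 15 other gamma genes summed to 52.4 ± 3.63 FPKM in Nrl-/- and 54.1 ± 7.35 FPKM in WT retina (SD, n = 3 each).

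Pcdhga1, the first gene, moved most. It was at 2.63, 2.27 and 2.48 FPKM in Nrl-/- libraries and 5.23, 3.96 and 5.06 FPKM in WT libraries. The groups did not overlap, and the log2 fold change was -0.73 (SE 0.10, adjusted p = 0.00046 in limma). Pcdhga4, the highest of the 7, was at 4.86, 4.94 and 5.41 FPKM in Nrl-/- and 7.17, 7.63 and 6.52 FPKM in WT libraries (log2 fold change -0.42, SE 0.07, adjusted p = 0.0022). Pcdhga2 and Pcdhgb1 had log2 fold changes of -0.50 and -0.51, with adjusted p of 0.0049 and 0.0060. Pcdhga3, Pcdhgb2 and Pcdhga5 had log2 fold changes of -0.38, -0.42 and -0.27, with adjusted p of 0.022, 0.0054 and 0.037. Pcdhga3 and Pcdhga5 lost their call when either Nrl-/- replicate 1 or replicate 3 was left out (adjusted p from 0.068 to 0.149), and Pcdhga5 also without WT replicate 1 or 2 (0.080 and 0.081). Without WT replicate 1 the test called 6 of the 7 lower, beside 9.62% of all transcripts. An ordinary linear model called 3 of the 7 lower, beside 7.57%.

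The 3 C-type genes lie at the other end of the cluster. Pcdhgc3, the most abundant gamma protocadherin, was at 18.3, 16.8 and 15.2 FPKM in Nrl-/- and 15.9, 13.1 and 14.2 FPKM in WT libraries, and the groups overlapped (log2 fold change 0.20, adjusted p = 0.095). Pcdhgc4, which is needed for interneuron survival in mice, was at 7.34, 7.28 and 6.11 FPKM in Nrl-/- and 10.6, 8.06 and 7.88 FPKM in WT libraries. Its groups did not overlap, but it did not pass as deposited (log2 fold change -0.31, adjusted p = 0.057). It passed in 8 of 19 alternative settings, among them all 4 rescalings (adjusted p from 0.019 to 0.026), and not in the other 11. Without WT replicate 1 its log2 fold change was -0.18 (adjusted p = 0.124). Pcdhgc5 was at 1.35, 1.22 and 1.22 FPKM in Nrl-/- and 2.20, 1.60 and 1.73 FPKM in WT libraries (log2 fold change -0.33, adjusted p = 0.027). This call was lost without WT replicate 1 (adjusted p = 0.059) and without any 1 of the Nrl-/- libraries (0.059 to 0.086).

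Reads from the shared constant exons of Pcdha and Pcdhg cannot be assigned to 1 gene, and 70-base reads of near-identical exons can also be split, so values of single clustered genes are uncertain. The TopHat table, with 1 pooled value per genotype as the authors' value and no replicates, kept all alpha transcripts under the symbol Pcdha1 and all gamma transcripts under Pcdhga11. Its 7 alpha transcripts summed to 38.8 FPKM in Nrl-/- and 20.1 FPKM in WT retina. The highest of them was at 25.7 FPKM in Nrl-/- and 9.72 FPKM in WT. The 9 gamma transcripts summed to 51.7 FPKM in Nrl-/- and 56.9 FPKM in WT retina. In the annotation used for overlaps, the names Pcdha11 and Pcdhgc5 covered 257373 and 167539 bases. The exons under each name overlapped an annotated gene on the other strand, and the kit did not mark strand. With such wide spans the overlap cannot be placed on Pcdha11 or Pcdhgc5 alone. The other called alpha and gamma genes had no position in that annotation and were not checked for overlap.

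The beta protocadherins are single-exon genes with no shared constant exon. They summed to 82.2 ± 1.89 FPKM in Nrl-/- and 75.5 ± 4.67 FPKM in WT retina (SD, n = 3 each). Of 21 genes 4 were higher (28.3% of all genes), none lower (10.2% of all genes), and 17 did not pass. Pcdhb18 had the firmest call, at 5.19, 4.70 and 5.02 FPKM in Nrl-/- and 3.79, 3.56 and 3.56 FPKM in WT libraries (log2 fold change 0.36, SE 0.07, adjusted p = 0.0027). Pcdhb17, the most abundant, was at 9.85, 10 and 9.56 FPKM in Nrl-/- and 8.92, 7.75 and 7.28 FPKM in WT libraries (log2 fold change 0.27, adjusted p = 0.021). Pcdhb17, Pcdhb6 (adjusted p = 0.038) and Pcdhb14 (adjusted p = 0.031) lost their calls under every rescaling, with adjusted p from 0.081 to 0.136. Each also lost it without Nrl-/- replicate 1 or 2, Pcdhb17 without WT replicate 2, and Pcdhb6 and Pcdhb14 without WT replicate 1 or 3 (adjusted p from 0.050 to 0.139). Next in level were Pcdhb20, at 7.05 FPKM in Nrl-/- and 6.36 FPKM in WT retina, and Pcdhb9, at 6.38 FPKM in Nrl-/- and 6.59 FPKM in WT retina, and neither passed.

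**Figure D3:**
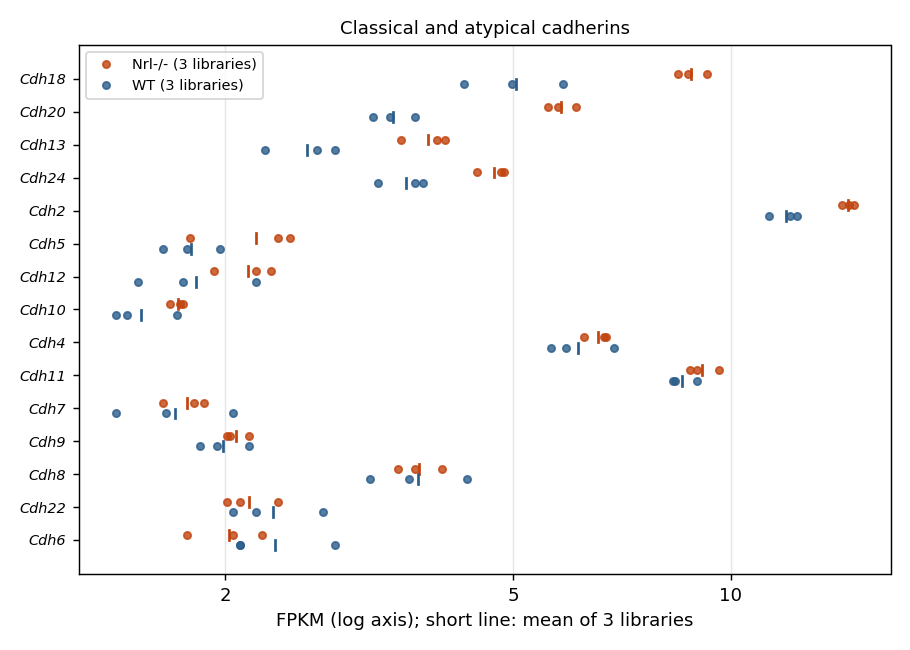
FPKM in each library (log axis) of the classical and atypical cadherins, with Nrl-/- points above WT points for each gene and a short line at the mean of 3 libraries. Cdh18, Cdh20, Cdh13, Cdh24 and Cdh2 show no overlap between genotypes.

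Among the classical cadherins Cdh18 and Cdh20 rose most. Both are type II cadherins, a group of neuronal adhesion proteins with cell-type-specific expression. Cdh18 was at 8.45, 8.71 and 9.27 FPKM in Nrl-/- libraries and 4.98, 4.28 and 5.87 FPKM in WT libraries. The lowest Nrl-/- library was well above the highest WT library (log2 fold change 0.71, SE 0.10, adjusted p = 0.00045). Cdh20 was at 5.59, 5.77 and 6.11 FPKM in Nrl-/- and 3.66, 3.38 and 3.20 FPKM in WT libraries (log2 fold change 0.63, SE 0.07, adjusted p = 0.00014), again without overlap. In mm9 Cdh18 lies on the plus strand of chr15:22478777-23404173 and Cdh20 on the plus strand of chr1:106665106-106892058. Both kept the call and its sign under all alternative settings. In the TopHat table the pooled values were 9.33 FPKM in Nrl-/- and 5.12 FPKM in WT for Cdh18, and 6.33 FPKM in Nrl-/- and 3.78 FPKM in WT for Cdh20.

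Cdh24 was the third of 12 type II genes called higher (28.3% of all genes), at 4.82, 4.46 and 4.86 FPKM in Nrl-/- and 3.66, 3.76 and 3.26 FPKM in WT libraries (log2 fold change 0.33, SE 0.07, adjusted p = 0.0072). Every Nrl-/- library was above every WT library, but Cdh24 (mm9 chr14:55250829-55260201, minus strand) overlaps an annotated gene on the other strand. The remaining 9 type II genes did not pass, with log2 fold changes from -0.14 to 0.19. The most abundant, Cdh11, a cadherin of mesenchyme and glia, was at 9.63, 8.78 and 8.99 FPKM in Nrl-/- and 8.38, 8.99 and 8.32 FPKM in WT libraries (log2 fold change 0.08, adjusted p = 0.33). Cdh5, the VE-cadherin of endothelium, was at 2.46, 2.36 and 1.79 FPKM in Nrl-/- and 1.64, 1.77 and 1.97 FPKM in WT libraries, which overlapped (log2 fold change 0.19, adjusted p = 0.17). The 10 endothelial markers summed to 46.5 to 52.5 FPKM in Nrl-/- and 48.8 to 59.2 FPKM in WT retina, with 4 higher and 1 lower, near the 28.3% and 10.2% of all genes.

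Of the type I cadherins, Cdh2 (N-cadherin, the main cadherin of neural adherens junctions) was modestly higher. It was at 14.8, 14.2 and 14.6 FPKM in Nrl-/- and 12.4, 11.3 and 12.1 FPKM in WT libraries (log2 fold change 0.27, SE 0.06, adjusted p = 0.0059), and the call was lost under upper-quartile and quantile scaling. Cdh4, the retinal R-cadherin, was at 6.73, 6.67 and 6.26 FPKM in Nrl-/- and 6.89, 5.63 and 5.92 FPKM in WT libraries and did not pass (log2 fold change 0.08, adjusted p = 0.44). Cdh13, an atypical cadherin held to the membrane by a lipid anchor, was at 3.92, 3.50 and 4.03 FPKM in Nrl-/- and 2.68, 2.27 and 2.84 FPKM in WT libraries. Its groups did not overlap (log2 fold change 0.42, SE 0.09, adjusted p = 0.0045).

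None of the 10 non-clustered protocadherins passed in limma on all deposited values, against 28.3% of all genes higher and 10.2% lower. At an unadjusted p under 0.05 were 2 of the 10, against 5781 of all 12145 genes. Pcdh9, the most abundant, was at 11.8, 11.8 and 12.2 FPKM in Nrl-/- and 13.3, 13.3 and 13.2 FPKM in WT libraries, which did not overlap (log2 fold change -0.14, adjusted p = 0.058). It did pass in an ordinary linear model and, in limma, with transcripts of at least 5 FPKM only (adjusted p = 0.045). Pcdh9 also passed under all 4 rescalings, with rescaled log2 fold changes from -0.25 to -0.24. Pcdh7 was at 8.46 FPKM in Nrl-/- and 8.87 FPKM in WT retina, and Pcdh10 at 7.05 FPKM in Nrl-/- and 6.71 FPKM in WT retina (adjusted p = 0.59 and 0.57). The X-linked Pcdh11x was at 1.66, 1.62 and 1.69 FPKM in Nrl-/- and 1.66, 1.497 and 1.83 FPKM in WT libraries. Among the 5 genes with several transcripts, Cdh8, Celsr2, Pcdh10, Pcdh19 and Pcdh8, no difference in fold change between the 2 highest isoforms passed in limma (1.26% of 2071 genes with several transcripts passed), and the smallest unadjusted p was 0.098. This was Pcdh10, with a log2 difference of 0.49 (adjusted p = 0.49), where WT replicate 1 alone was at 3.06 FPKM for the lower one and the other libraries at 0.972 to 1.25 FPKM.

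The 2 Celsr and 3 Fat genes, the large cadherins of planar polarity, did not pass in limma, against 28.3% of all genes higher and 10.2% lower. None was at an unadjusted p under 0.05, against 5781 of all 12145 genes. Celsr3, which guides axons, was at 12.8, 12.5 and 13.2 FPKM in Nrl-/- and 15, 13.2 and 12.5 FPKM in WT libraries (log2 fold change -0.07, adjusted p = 0.51). Celsr2 was at 2.85 FPKM in Nrl-/- and 3.14 FPKM in WT retina. Fat3, which shapes amacrine dendrites, was at 6.32 FPKM in Nrl-/- and 7.11 FPKM in WT retina (log2 fold change -0.14, adjusted p = 0.26). Fat4 and Fat1 had log2 fold changes of -0.11 and -0.07, and neither passed.

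Of the 3 genes that are no cadherins, 1 was lower and 1 higher in Nrl-/- retina (10.2% and 28.3% of all genes). Dscaml1 encodes an immunoglobulin-family adhesion protein that spaces rod-circuit neurons in the mouse retina. In mm9 it lies on the plus strand of chr9:45235288-45561343. It was at 12.7, 13.3 and 12.7 FPKM in Nrl-/- and 25.5, 21.3 and 22.3 FPKM in WT libraries, with a log2 fold change of -0.78 (SE 0.07, adjusted p = 3.7e-05). The groups lay far apart, and the TopHat value was 11.3 FPKM in Nrl-/- and 22.4 FPKM in WT for its highest transcript. Dscam, its paralog in self-avoidance, moved the other way, at 8, 8.13 and 7.63 FPKM in Nrl-/- and 6.57, 5.68 and 5.54 FPKM in WT libraries (log2 fold change 0.37, SE 0.07, adjusted p = 0.0040). Dscr3, an endosomal sorting protein, did not pass (log2 fold change 0.13, adjusted p = 0.18). The 8 measured amacrine markers summed to 207.5 to 227.7 FPKM in Nrl-/- and 203.5 to 241.0 FPKM in WT retina. The 10 bipolar markers summed to 460 to 518 FPKM in Nrl-/- and 304 to 336 FPKM in WT retina, with 5 higher and 1 lower (28.3% and 10.2% of all genes), and their part in these results was not tested.

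**Figure D4:**
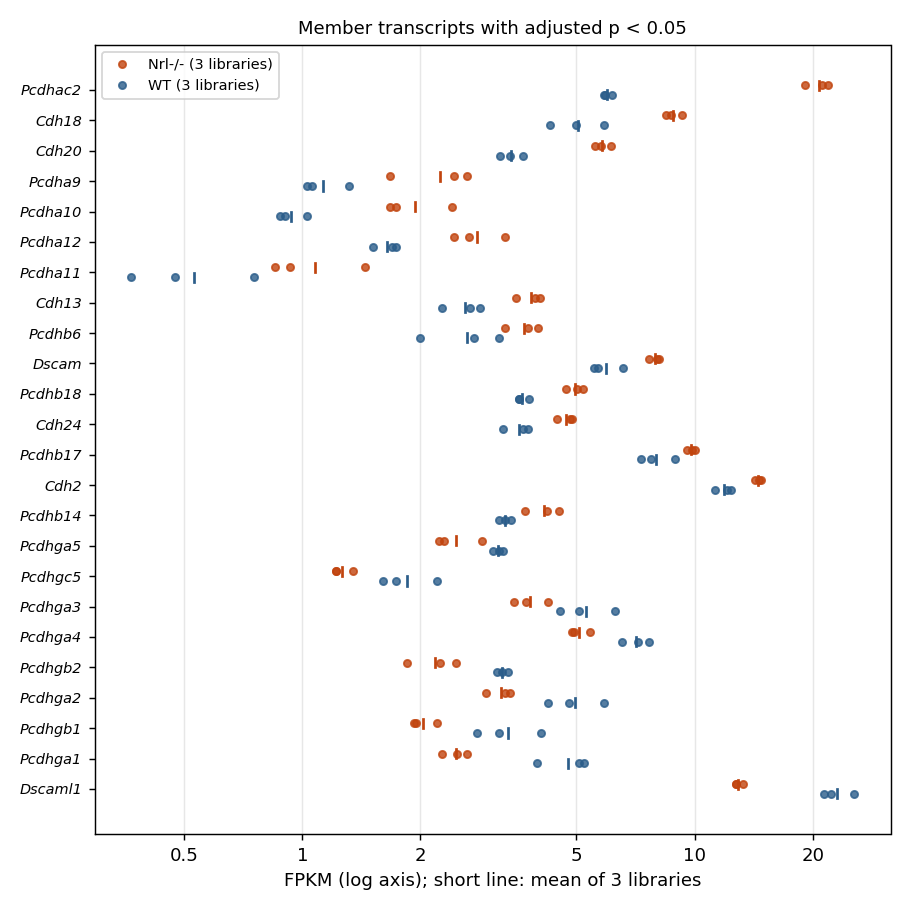
FPKM (log axis) in each library of the 24 members with an adjusted p under 0.05, ordered by log2 fold change, with Nrl-/- points above WT points and a short line at each mean. Pcdhac2 is at the top and Dscaml1 at the bottom, both with no overlap between genotypes.

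Several other genes of the adherens junction rose. Of 15 measured adherens junction adaptors and nectins 7 were higher and none lower, read against 28.3% and 10.2% of all genes. Ctnna1, alpha-catenin, was at 34.0, 35.8 and 36.0 FPKM in Nrl-/- and 22.6, 22.8 and 24.8 FPKM in WT libraries (log2 fold change 0.57, adjusted p = 7.1e-05). The log2 fold changes of Ctnnal1 (alpha-catulin), Magi2 (a junction scaffold) and Pvrl3 (nectin-3) were 0.54, 0.44 and 0.43, with adjusted p of 0.0057, 0.0019 and 0.010 in limma. Of the 3 desmosome plaque genes measured only Jup (plakoglobin) passed, with a log2 fold change of 0.36 (adjusted p = 0.026).

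In the planar polarity list 1 of 10 measured genes was higher and 1 lower, beside 28.3% and 10.2% of all genes. Prickle2, a cytoplasmic polarity protein, was at 8.71, 8.92 and 9.63 FPKM in Nrl-/- and 3, 2.51 and 2.48 FPKM in WT libraries (log2 fold change 1.46, adjusted p = 9.9e-07), while its paralog Prickle1 fell by 0.30 on the log2 scale (adjusted p = 0.017). Of 5 other cadherin-superfamily genes 1 was higher and none lower, beside the same 28.3% and 10.2%. This was Cdhr1, a photoreceptor cadherin of the outer segment base, at 327 ± 13.2 FPKM in Nrl-/- and 207 ± 10.6 FPKM in WT retina (SD, n = 3 each, log2 fold change 0.66, adjusted p = 4.3e-05 in limma). Of 9 measured cleavage genes only Psenen, a gamma-secretase subunit, passed, with a log2 fold change of 0.48 (adjusted p = 0.0054). Here too 28.3% of all genes were higher and 10.2% lower.

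Among 16 measured regulators and effectors of the clustered protocadherins 4 were higher and 2 lower, close to the 28.3% and 10.2% of all genes. The cohesin loader Nipbl was at 12.4, 12.5 and 12.3 FPKM in Nrl-/- and 15.6, 15.9 and 15.9 FPKM in WT libraries (log2 fold change -0.33, adjusted p = 0.0010). Ctcf, the insulator protein that binds the protocadherin promoters, was at 22.1 ± 0.160 FPKM in Nrl-/- and 25.4 ± 0.592 FPKM in WT retina (SD, n = 3 each, log2 fold change -0.19, adjusted p = 0.015 in limma). The cohesin subunit Smc1a was higher, with a log2 fold change of 0.35 (adjusted p = 0.0026), as were the cytoskeletal effector Cyfip2 (0.34, adjusted p = 0.0075) and the focal adhesion kinase Ptk2 (0.28, adjusted p = 0.016).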

How the data were processed

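Retinal RNA of 3 Nrl-/- and 3 WT mice, each a separate animal, was sequenced with 70-base single reads. The authors aligned the reads with BWA to mm9 and estimated FPKM for each UCSC refFlat transcript in Partek, and they deposited log2(FPKM + 1) rounded to 2 decimals for transcripts of at least 1 FPKM in any library. The authors also deposited pooled FPKM from TopHat and Cufflinks, used here only for comparison without a test. The columns of the authors' own comparisons (fold changes and p-values) were not used. The tables hold no read counts, so depth per value and counting error are unknown.

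Deposited values were tested in limma 3.58.1 (R 4.3.3, empirical Bayes with trend, two-sided, genotype only), with Benjamini-Hochberg adjustment over 15142 transcripts and a threshold of 0.05. FPKM printed is 2 to the deposited value, less 1. The fit was tested on simulated data. Alternatives were other pseudocounts, filters, models and scalings, the replicate number as a block, summed transcripts, and each library left out. Members and lists were chosen with earlier results of these data known. Named genes are called members of at least 1.5-fold, the 3 most abundant of each subfamily and up to 4 called genes of each list. The other called members, Ctcf, and the uncalled Pcdhac1, Cdh5, Pcdh11x and members named for the low-value filter or for several isoforms fall outside this rule and were named after their values were seen. Promoters come from RefSeq, gene spans from GENCODE on mm9.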

Additional observations from a re-analysis of the deposited data

How the results depend on the processing

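The 15 members higher and 9 lower became 11 to 16 and 6 to 11 when each library was left out in turn. In those fits 18.4% to 27.6% of all transcripts were higher and 7.4% to 10.4% lower. With transcripts of at least 5 FPKM only, 7 were higher, counted by transcript or by gene, since fewer members were tested. At that filter 34.8% of all transcripts tested were higher. An ordinary linear model left 5 lower, by transcript or by gene, and 8 partner-list genes higher in place of 15. In that model 7.57% of all transcripts were lower and 19.4% higher. The 7 changes of at least 1.5-fold became 11 with a pseudocount of 0.1, 4 with quantile normalization, 4 with scaling without the 25 highest transcripts and 5 to 7 with a library left out. Rescaling moved the median of all transcripts by -0.09 to -0.08 on the log2 scale and left 10 or 11 members higher and 13 lower. In those fits 16.19% to 16.93% of all transcripts were higher and 14.62% to 15.02% lower, in place of 26.73% and 10.05%. Of all calls 51.96% to 53.65% were higher, in place of 72.67%. The 3 partner-list genes lower became 8, 7, 7 and 6 under median-of-ratios, upper-quartile and quantile scaling and without the 25 highest transcripts, and 1 to 4 with a library left out.

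Uncalled values near 0 changed sign. Under median-of-ratios scaling, upper-quartile scaling and scaling without the 25 highest transcripts Cdh11 was at -0.013, -0.014 and -0.0069, Cdh4 at -0.0090, -0.0097 and -0.0033 and Pcdh10 at -0.030, -0.031 and -0.024. Pcdh10 was at -0.0094 under quantile normalization and -0.095 with FPKM summed per symbol, and the isoform difference of Pcdh8 was -0.0064 under quantile normalization. With a library left out Celsr3 ran from -0.12 to 0.0033, Pcdh7 from -0.10 to 0.01, and the isoform differences of Celsr2 from -0.062 to 0.143 and of Pcdh8 from -0.057 to 0.063. The deviations of same-numbered libraries of the genotypes correlated at 0.0286, 0.0237 and 0.124 for replicates 1, 2 and 3. Differently numbered pairs ran from -0.0895 to 0.0729, so the pair of replicates 3 was the highest. The replicate block gave 16 members higher and 10 lower, beside 26.24% and 10.04% of all transcripts. The cause of these shifts was not tested. Depth per value is unknown.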
